A study of Mus musculus with 6 samples.

Results

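The genes described here are 10 markers of the supporting cells of the lung, chosen by symbol from the deposited count table, which lists 19639 genes. Tcf21, Npnt, Wnt2, Inmt and Pdgfra mark alveolar fibroblasts, Pi16, Dcn and Gli1 mark fibroblasts of the adventitia around airways and vessels, and Pdgfrb and Acta2 mark mural cells, that is pericytes and smooth muscle. All 10 were in the table and passed the filter on low counts. RNA was sequenced from 6 lung libraries of RPM mice, the short name of a small cell lung cancer model with deletion of Rb1 and Trp53 and overexpression of Myc. In the shThoc1 group, 3 libraries, the animals had received lentivirus with a hairpin against Thoc1, a subunit of the THO complex that acts in mRNA export. In the shControl group, 3 libraries, they had received lentivirus with a control hairpin. Both groups share the RPM background, and the labels give no strain, age, sex or time after infection, nor which cells the virus reached. Whether each library is its own animal, and what share of it is tumour, is not in the labels, so the p-values here cover only the differences seen between libraries, which may be technical.

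Lung fibroblasts build the matrix that holds the gas exchange surface and send growth signals to the epithelium. Alveolar fibroblasts lie beside the type 1 and type 2 cells of the alveolar wall, whereas adventitial fibroblasts fill the cuffs around larger vessels and bronchi. Pericytes and smooth muscle cells wrap vessels and airways, and they depend on platelet-derived growth factor signalling through PDGFRB, while many fibroblasts carry PDGFRA. In a whole piece of lung, fewer cells of a type and less RNA per cell cannot be told apart.

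Replicate 2 of shThoc1 stood apart in the marker lists that follow, and the fold changes below are given with and without it. It was picked after the data were seen, so p-values of fits without it are descriptive. Replicate 2 of shControl also differed from its group. Neuroendocrine tumour markers summed to 107 CPM there, against 1157 and 1085 CPM in shControl replicates 1 and 3. Ranges over leaving out each library are given under the processing alternatives. Total counts were 15025199, 9934583 and 13923785 in shThoc1 replicates 1, 2 and 3, and 13706926, 12617662 and 13479053 in shControl replicates 1, 2 and 3. The 10 alveolar type 2 markers summed to 3796 CPM (counts scaled to a common library total) in shThoc1 replicate 2 and to 29231 and 26293 CPM in shThoc1 replicates 1 and 3, against 9153 to 20181 CPM in the shControl libraries. The 10 endothelial markers summed to 293 CPM in shThoc1 replicate 2 and to 5192 and 3953 CPM in shThoc1 replicates 1 and 3, against 1218 to 2102 CPM in shControl. Adipocyte markers stood at 2933 CPM in shThoc1 replicate 2, 136 and 110.1 CPM in shThoc1 replicates 1 and 3, and 69.3 to 218 CPM in shControl, and T cell and B cell markers were also highest in shThoc1 replicate 2. Markers of dividing cells summed to 61.5, 717 and 135 CPM in shThoc1 replicates 1, 2 and 3 and to 1539, 749 and 1414 CPM in shControl replicates 1, 2 and 3. Thoc1 itself had 53.4, 69.5 and 61.4 CPM in shThoc1 replicates 1, 2 and 3 and 85.7, 80.2 and 85.8 CPM in shControl replicates 1, 2 and 3, a log2 fold change of -0.45 (SE 0.17, adjusted p = 0.304, edgeR), without overlap between the groups, and -0.61 (SE 0.15, adjusted p = 0.0719) with shThoc1 replicate 2 left out.

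**Figure D1:**
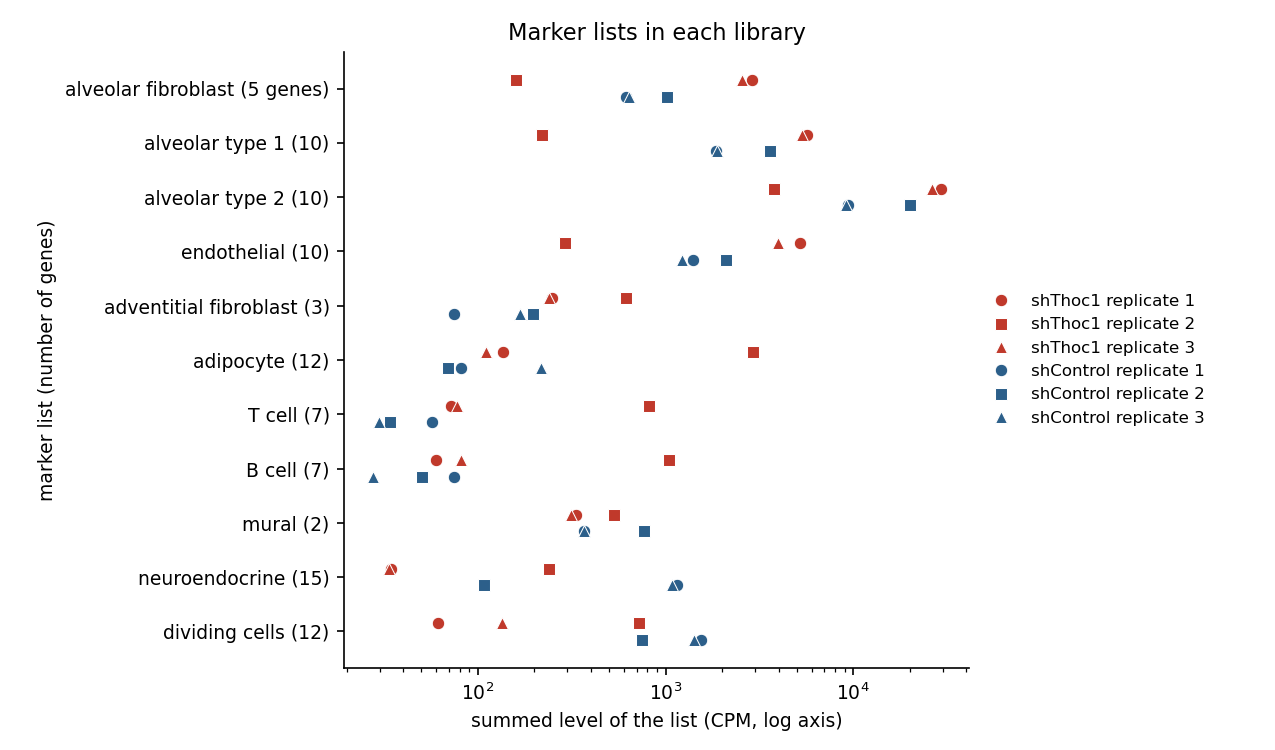
Summed level of each marker list (CPM, log axis) in each of the 3 shThoc1 and 3 shControl libraries, one point per library, with the number of genes in each list in brackets. For the alveolar member genes, alveolar type 1 and type 2 cells and endothelium, shThoc1 replicate 2 is the lowest point, and for adipocytes, T cells and B cells it is the highest.

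No member passed an adjusted p of 0.05 in the quasi-likelihood test of edgeR over the 15287 genes tested, and 0% of all genes did. At an unadjusted p under 0.05, 2 of the 10 members were higher and 0 lower in shThoc1, against 6.93% of all genes higher and 9.24% lower. The fitted log2 fold change was above 0 for 7 members and below 0 for 3, with a median of 0.49, where 52.1% of all genes were above 0 and their median was 0.03. For 2 members, Pi16 and Dcn, every shThoc1 library lay above every shControl library, against 11.1% of all genes, and for 0 members every shThoc1 library lay below, against 10.5%. With shThoc1 replicate 2 left out, an adjusted p under 0.05 was reached by 1 member, Inmt, and by 1.65% of all genes. At an unadjusted p under 0.05, 3 members (Inmt, Wnt2 and Npnt) were then higher and 0 lower, against 11.5% of all genes higher and 21.2% lower. DESeq2 on the 6 libraries called 0 members and 5.94% of all genes. In edgeR without shThoc1 replicate 2, 8 members were above 0, Pdgfrb among them at only 0.00012, against 46.8% of all genes. For 6 members every remaining shThoc1 library lay above every shControl library, against 27.7% of all genes. For 1 member, Acta2, every shThoc1 library then lay below, against 27.6% of all genes.

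**Figure D2:**
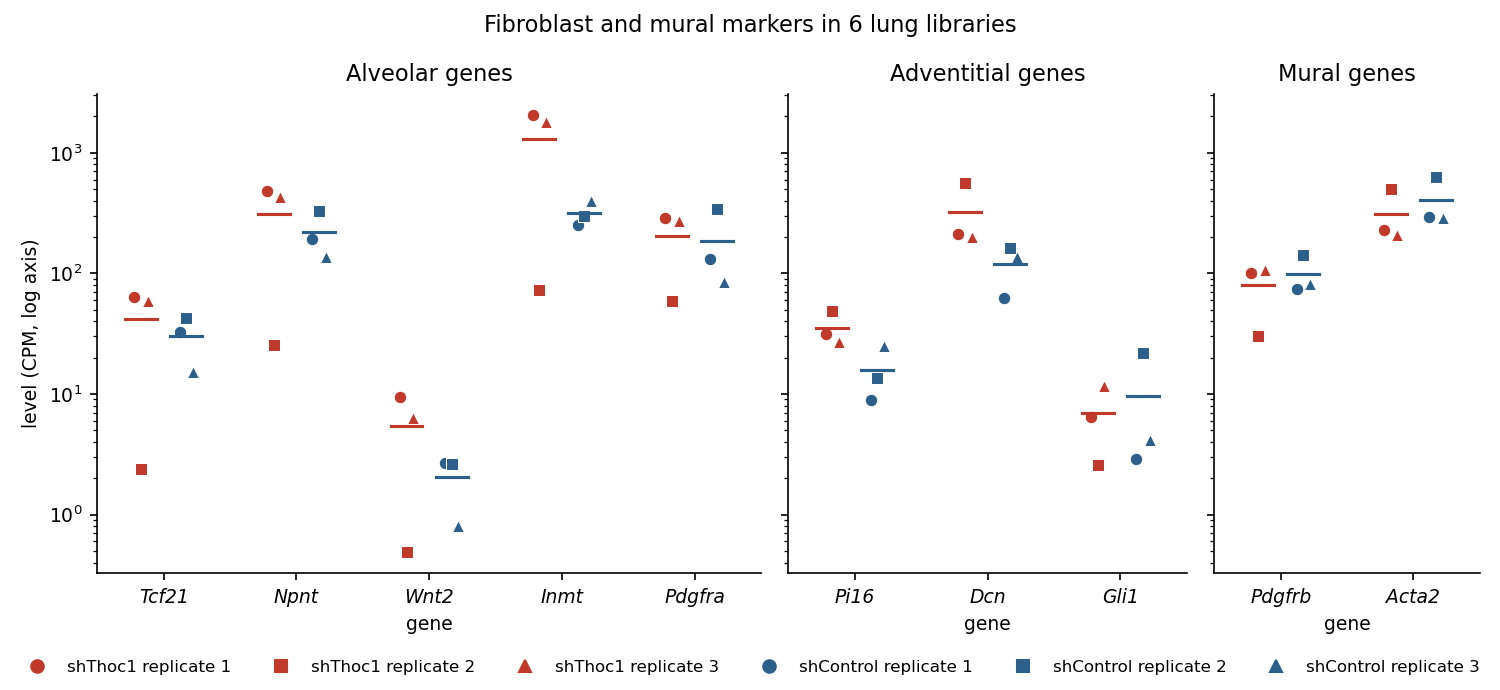
Level of each of the 10 markers (CPM, log axis) in the 3 shThoc1 and 3 shControl libraries, one point per library, in panels for alveolar, adventitial and mural genes. In the alveolar panel shThoc1 replicate 2 is the lowest point for every gene, and in the adventitial panel it is the highest for Pi16 and Dcn.

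Each of the 5 alveolar genes was lowest in shThoc1 replicate 2, and 4 of them, all but Pdgfra, were highest in shThoc1 replicate 1. Inmt, which encodes an enzyme that methylates indolethylamines, had 2045, 72.8 and 1786 CPM in shThoc1 replicates 1, 2 and 3 and 252, 299.6 and 397 CPM in shControl replicates 1, 2 and 3. The 3 shControl libraries lay close together, 2 shThoc1 libraries lay far above them, and the third lay below all 3. Inmt averaged 1301 ± 1072 CPM in shThoc1 and 316 ± 73.8 CPM in shControl (SD, n = 3 each), and its log2 fold change was 2.04 (SE 1.05, adjusted p = 0.363, edgeR). Without shThoc1 replicate 2 it was higher in shThoc1 by a log2 fold change of 2.53 (SE 0.26, adjusted p = 0.0488, edgeR), with both remaining shThoc1 libraries at 5.65 times the shControl mean or more. That library was left out after the data were seen, and Inmt was lowest in it, so this p-value is descriptive. Its adjusted p was the smallest in that fit, but other genes shared this value, among them Tek, Pcolce2 and Col15a1, each with a smaller unadjusted p.

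Tcf21, a basic helix-loop-helix transcription factor of the lung mesenchyme, had 63.9, 2.37 and 59.1 CPM in shThoc1 replicates 1, 2 and 3, and 32.4, 42.7 and 15.3 CPM in shControl replicates 1, 2 and 3. Npnt, which encodes nephronectin, a basement membrane ligand of an integrin, had 479, 25.3 and 428 CPM in shThoc1 and 194, 329 and 137 CPM in shControl. For both genes shThoc1 replicates 1 and 3 stood above every shControl library and shThoc1 replicate 2 below every one, so the groups overlapped. The log2 fold change was 0.47 (SE 1.04, adjusted p = 0.814, edgeR) for Tcf21 and 0.50 (SE 0.96, adjusted p = 0.789) for Npnt. Leaving out shThoc1 replicate 2 gave 0.96 (SE 0.42, adjusted p = 0.182) for Tcf21 and 0.98 (SE 0.39, adjusted p = 0.151) for Npnt. These 2 genes were also the most alike pair among the members: with each gene centred on its mean, their log2 levels differed by a root mean square of 0.20 over the 6 libraries.

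Wnt2, a secreted ligand that acts on the developing lung epithelium, had 9.38, 0.494 and 6.32 CPM in shThoc1 replicates 1, 2 and 3, from 135, 5 and 85 counts, and 2.66, 2.63 and 0.806 CPM in shControl, from 38, 33 and 11 counts. It was 4.62 and 3.11 times the shControl mean in shThoc1 replicates 1 and 3 and 0.243 times in shThoc1 replicate 2. Its log2 fold change was 1.41 (SE 1.01, adjusted p = 0.476, edgeR), and 1.88 (SE 0.58, adjusted p = 0.0994) without shThoc1 replicate 2. Pdgfra, the receptor that marks most lung fibroblasts, had 287, 58.7 and 272 CPM in shThoc1 and 133, 343 and 85.1 CPM in shControl. Unlike the other 4 alveolar genes it was highest in a shControl library, replicate 2, so that the groups overlapped with or without shThoc1 replicate 2. The log2 fold change of Pdgfra was 0.14 (SE 0.75, adjusted p = 0.923), and 0.51 (SE 0.59, adjusted p = 0.583) without that library.

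The gap between shThoc1 replicate 2 and the other shThoc1 libraries was not of one size across the alveolar genes. Replicate 1 exceeded replicate 2 of the shThoc1 group 28.1-fold for Inmt, 27.0-fold for Tcf21, 19.0-fold for Npnt and Wnt2, and 4.89-fold for Pdgfra. The alveolar members summed to 2885, 159.6 and 2552 CPM in shThoc1 replicates 1, 2 and 3 and to 614, 1017 and 635 CPM in shControl replicates 1, 2 and 3. Type 1 cell markers followed the same order of shThoc1 libraries, with 5678, 219 and 5318 CPM in shThoc1 and 1861, 3581 and 1880.2 CPM in shControl, and the part of cell content in the members' values was not tested.

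The 250 bases before the annotated start of Inmt and Pdgfra are shown because these are the alveolar members with the widest and the narrowest range, and those of Acta2 because it had the narrowest range of all 10. RefSeq windows of build GRCm38.p6 were at hand for 7 of the 10 members, and both strands were searched for the TATA box TATAAA, for the E-box letters CAGCTG and CATCTG, which basic helix-loop-helix factors such as Tcf21 can bind, and for the CArG box of serum response factor with at least 5 of its middle 6 bases A or T. Matches are in capitals.
Inmt, chr6:55174991-55175240, minus strand: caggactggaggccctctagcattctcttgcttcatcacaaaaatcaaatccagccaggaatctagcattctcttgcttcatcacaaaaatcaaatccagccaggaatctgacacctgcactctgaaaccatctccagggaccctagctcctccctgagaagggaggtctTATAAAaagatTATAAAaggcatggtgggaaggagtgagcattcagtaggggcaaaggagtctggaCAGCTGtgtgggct
Pdgfra, chr5:75152001-75152250, plus strand: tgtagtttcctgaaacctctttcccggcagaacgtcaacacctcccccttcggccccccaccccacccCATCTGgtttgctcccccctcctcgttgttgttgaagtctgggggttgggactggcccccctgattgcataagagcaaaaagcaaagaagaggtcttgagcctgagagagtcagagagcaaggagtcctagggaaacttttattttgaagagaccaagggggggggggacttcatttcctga
Acta2, chr19:34255374-34255623, minus strand: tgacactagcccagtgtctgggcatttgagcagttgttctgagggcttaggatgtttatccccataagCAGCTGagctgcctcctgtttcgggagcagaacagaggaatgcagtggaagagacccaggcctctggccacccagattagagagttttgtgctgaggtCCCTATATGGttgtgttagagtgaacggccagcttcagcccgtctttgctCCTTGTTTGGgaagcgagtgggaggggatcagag

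In the Inmt window, TATAAA began 80 and 69 bases before the start and CAGCTG 14 bases before it. The Pdgfra window held CATCTG 182 bases before the start and no TATAAA. In the Acta2 window, CAGCTG lay 182 bases and CArG boxes lay 84 and 34 bases before the start. Among the 32851 mouse promoter windows of the same length, 12.4% held TATAAA, 13.0% CAGCTG, 14.4% CATCTG and 8.59% a CArG box. A match of letters is not evidence of binding.

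Among the adventitial genes, Pi16 and Dcn were higher in every shThoc1 library than in any shControl library, but neither passed the adjusted threshold. Pi16, a peptidase inhibitor and a marker of adventitial fibroblasts, had 31.1, 48.5 and 26.9 CPM in shThoc1 replicates 1, 2 and 3 and 8.96, 13.5 and 25.0 CPM in shControl replicates 1, 2 and 3. It averaged 35.5 ± 11.4 CPM in shThoc1 and 15.8 ± 8.30 CPM in shControl (SD, n = 3 each), a log2 fold change of 1.17 (SE 0.45, unadjusted p = 0.0401, adjusted p = 0.304, edgeR). The gap between the groups was narrow, since the lowest shThoc1 library at 26.9 CPM stood just above the highest shControl library at 25.0 CPM. The log2 fold change was 0.81 (SE 0.45, adjusted p = 0.269) when shThoc1 replicate 2 was left out.

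Dcn, which encodes decorin, a small proteoglycan that binds collagen fibrils, had 211, 562 and 201 CPM in shThoc1 replicates 1, 2 and 3 and 62.9, 161 and 138 CPM in shControl replicates 1, 2 and 3. It averaged 325 ± 205 CPM in shThoc1 and 121 ± 51.5 CPM in shControl (SD, n = 3 each), a log2 fold change of 1.43 (SE 0.55, unadjusted p = 0.0414, adjusted p = 0.304, edgeR). Here shThoc1 replicate 2 was the highest library, 2.66-fold above replicate 1, whereas for the alveolar genes it was the lowest. Leaving it out brought the log2 fold change of Dcn to 0.70 (SE 0.41, adjusted p = 0.283). With 3 libraries a group, the exact two-sided permutation test gives p = 0.1 for Pi16 and for Dcn, the smallest value that 20 assignments allow. Mesothelial markers summed to 661, 631 and 547 CPM in shThoc1 and 350.3, 582 and 304 CPM in shControl, and adipocyte markers moved with the high Dcn of shThoc1 replicate 2; their part in these values was not tested.

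Gli1, a transcription factor and target of hedgehog signalling that marks perivascular and peribronchial fibroblasts, went with neither. It had 6.46, 2.57 and 11.7 CPM in shThoc1 replicates 1, 2 and 3 and 2.87, 21.7 and 4.17 CPM in shControl replicates 1, 2 and 3. The highest library belonged to shControl and the lowest to shThoc1, while the other 4 overlapped. Its log2 fold change was -0.47 (SE 0.93, adjusted p = 0.794, edgeR), and -0.15 (SE 0.95, adjusted p = 0.924) without shThoc1 replicate 2. With shControl replicate 2 left out instead, it was 0.93. Centred log2 levels of Gli1 differed from those of Pi16 by a root mean square of 1.41 and from those of Dcn by 1.42, against 0.41 between Pi16 and Dcn and 0.55 between Gli1 and Pdgfra.

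Both mural genes had fitted values below 0 and neither passed the threshold. With shControl replicate 2 left out, the library in which both were highest, the log2 fold change was -0.01 for Pdgfrb and 0.15 for Acta2. Pdgfrb, the receptor through which pericytes are recruited to vessels, had 102, 30.3 and 106 CPM in shThoc1 replicates 1, 2 and 3 and 74.5, 142 and 81.7 CPM in shControl replicates 1, 2 and 3. Replicates 1 and 3 of shThoc1 lay inside the shControl range at 1.02 and 1.07 times the shControl mean, and replicate 2 lay below it at 0.305 times. The log2 fold change of Pdgfrb was -0.32 (SE 0.52, adjusted p = 0.748, edgeR), and 0.00 (SE 0.32) without shThoc1 replicate 2. Acta2, the actin of smooth muscle and of contractile fibroblasts, had 229.8, 499 and 207 CPM in shThoc1 and 293, 629 and 286 CPM in shControl. Replicates 1 and 3 of shThoc1 lay below all shControl libraries and replicate 2 within their range. The log2 fold change of Acta2 was -0.37 (SE 0.49, adjusted p = 0.693), and -0.95 (SE 0.42, adjusted p = 0.183) without shThoc1 replicate 2.

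**Figure D3:**
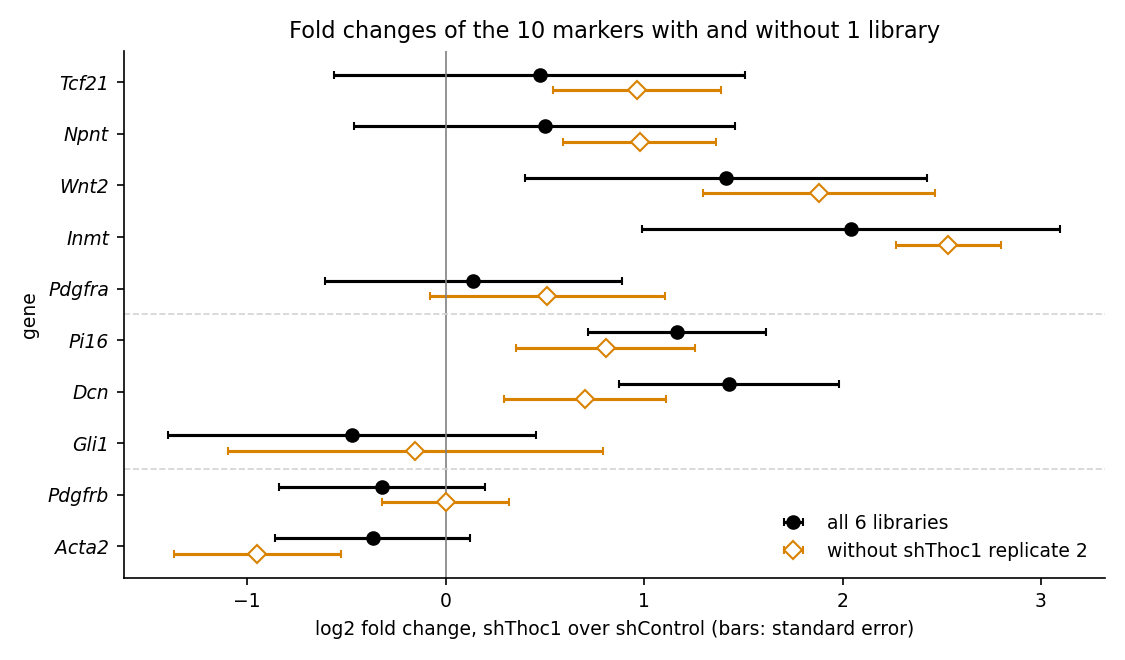
Log2 fold change of each marker, shThoc1 over shControl, with its standard error, from edgeR over all 6 libraries and without shThoc1 replicate 2. The alveolar genes move to higher values and narrower bars without that library (Inmt 2.04 and 2.53), Dcn and Acta2 to lower values (Dcn 1.43 and 0.70).

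In the authors' deposited table none of the 10 genes had an adjusted p under 0.05, against 5.72% of its genes with one. The authors' deposited table gives a log2 fold change of 2.02 for Inmt (adjusted p = 0.180), 1.41 for Dcn (adjusted p = 0.116), 1.14 for Pi16 (adjusted p = 0.141) and 1.40 for Wnt2 (adjusted p = 0.424). For Acta2, Pdgfrb and Gli1 the authors' deposited table gives -0.39, -0.34 and -0.49, with adjusted p of 0.693 to 0.788.

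Whether alveolar, adventitial and mural genes differed in their response was tested on the difference of log2(CPM + 0.5) within each library, for 3 pairs. Pdgfra exceeded Pdgfrb by 1.49, 0.94 and 1.35 in shThoc1 replicates 1, 2 and 3 and by 0.83, 1.27 and 0.06 in shControl replicates 1, 2 and 3, so the balance of the 2 receptors overlapped between the groups. The mean was 1.26 ± 0.29 in shThoc1 and 0.72 ± 0.61 in shControl (SD, n = 3 each), a change of 0.54 (exact two-sided permutation p = 0.2, adjusted over the 3 pairs 0.6), and 0.70 without shThoc1 replicate 2. The difference Tcf21 minus Acta2 was -1.84, -7.44 and -1.80 in shThoc1 and -3.16, -3.86 and -4.18 in shControl, a change of 0.04 (exact permutation p = 1, adjusted 1). Without shThoc1 replicate 2 that change was 1.91, since Tcf21 was at its lowest there while Acta2 was not. Tcf21 minus Pi16 was 1.03, -4.09 and 1.12 in shThoc1 and 1.80, 1.63 and -0.69 in shControl, a change of -1.56 (exact permutation p = 0.5, adjusted 0.75), and 0.16 without shThoc1 replicate 2. With 3 libraries a group none of these tests can reach 0.05, so a missed threshold does not show that the genes responded alike.

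Compared per kilobase of exon, so that genes can be set side by side, Inmt had the highest mean of the 10 in both groups, with 813 ± 669.8 CPM per kilobase in shThoc1 and 197 ± 46.1 in shControl. Acta2 came next with 142 ± 73.9 in shThoc1 and 183 ± 89.2 in shControl, followed by Npnt with 61.9 ± 49.5 in shThoc1 and 43.8 ± 19.6 in shControl, and Dcn with 55.6 ± 35.2 in shThoc1 and 20.7 ± 8.81 in shControl (SD, n = 3 each). The order of the means did not hold in every library, since in shThoc1 replicate 2 Inmt had 45.5 CPM per kilobase against 227 for Acta2 and 96.3 for Dcn, and in shControl replicate 2 it had 187 against 286 for Acta2. In shThoc1 replicates 1 and 3 Inmt had 1278 and 1116 CPM per kilobase. Inmt and Acta2 did not differ beyond their spread in shControl, and neither did Npnt and Dcn in shThoc1. Pdgfra, Tcf21 and Pdgfrb formed a middle group whose means lay within 1 SD of each other, at 20.5, 17.8 and 14.5 CPM per kilobase in shThoc1 and 18.6, 12.8 and 18.1 in shControl. Pi16 had 5.58 ± 1.80 CPM per kilobase in shThoc1 and 2.49 ± 1.30 in shControl, and the signalling genes Wnt2 and Gli1 were lowest, with 2.39 ± 2.00 and 1.38 ± 0.914 in shThoc1 and 0.901 ± 0.471 and 1.92 ± 2.11 in shControl. Exon lengths were taken from an annotation of an earlier build than that of the counts, and exons of Pdgfra, Pi16 and Gli1 overlap records of other genes there, so reads at these overlaps are uncertain.

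The range over the 6 libraries ordered the genes differently. The highest CPM over the lowest was 28.1-fold for Inmt, 27.0-fold for Tcf21 and 19.0-fold for Wnt2 and Npnt, and 3.03-fold for Acta2, the narrowest. Dcn ranged 8.94-fold, Gli1 8.47-fold, Pdgfra 5.85-fold, Pi16 5.41-fold and Pdgfrb 4.67-fold. The lowest library was shThoc1 replicate 2 for Tcf21, Npnt, Wnt2, Inmt, Pdgfra, Gli1 and Pdgfrb, shControl replicate 1 for Pi16 and Dcn, and shThoc1 replicate 3 for Acta2. After Tcf21 and Npnt, the members with the most alike patterns were Pi16 and Dcn, at a root mean square difference of 0.41, and Pdgfra and Pdgfrb, at 0.48. The least alike were Tcf21 and Dcn, at 2.23, and Inmt and Acta2, at 2.14, while Pdgfrb and Acta2, the 2 mural genes, stood at 0.99. These are descriptions over 6 libraries. In the 4 widest members, Inmt, Tcf21, Wnt2 and Npnt, the range was set by shThoc1 replicates 1 and 2, whereas Gli1 spanned 2.72 of its 2.86 log2 units, on the log2(CPM + 0.5) scale, within shControl.

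**Figure D4:**
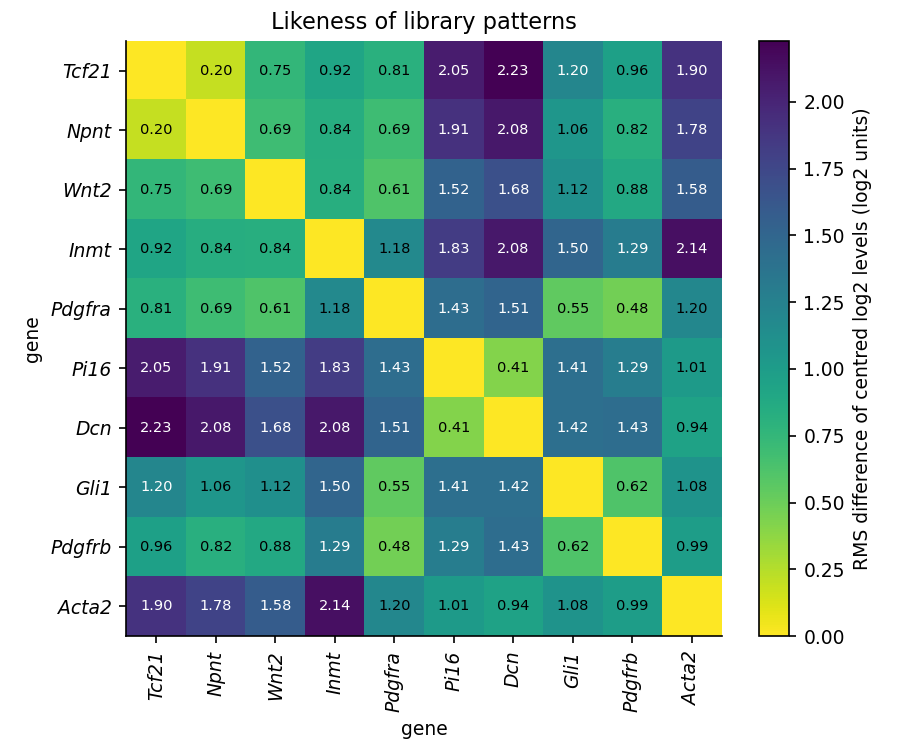
Root mean square difference, in log2 units, between the centred levels of each pair of markers over the 6 libraries, where a lower value means more alike. Tcf21 and Npnt form the closest pair at 0.20 and Tcf21 and Dcn the farthest at 2.23.

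Among the 13341 other genes considered, those with patterns most like a member's were found by the same measure. Immunoglobulin, T cell receptor and sex-linked genes, and genes with only a model or clone number for a name, were not considered. Nearest to Tcf21 were Tbx5, a T-box factor of the lung mesenchyme, at 0.084, and Col13a1, a transmembrane collagen and alveolar fibroblast marker, at 0.149. Tbx5 had 22.2, 0.494 and 18.7 CPM in shThoc1 replicates 1, 2 and 3 and 10.2, 15.7 and 5.35 CPM in shControl replicates 1, 2 and 3, the same order of libraries as Tcf21. Nearest to Npnt were Gpihbp1, which carries lipoprotein lipase on capillary endothelium, at 0.075, and Edil3 at 0.125. Gpihbp1 had 300.1, 14.1 and 259 CPM in shThoc1 and 116, 185 and 89.0 CPM in shControl, so the gene closest to Npnt among these candidates was one of endothelium. Nearest to Inmt were Ripply3, at 0.151, and Tek, the angiopoietin receptor of endothelium, at 0.212, with 498, 12.9 and 368 CPM in shThoc1 and 72.2, 68.3 and 79.6 CPM in shControl. Nearest to Wnt2 was Fgf18, at 0.215, a growth factor of the alveolar mesenchyme, followed by Mcc at 0.217. Fgf18 had 73, 0 and 47 counts in shThoc1 replicates 1, 2 and 3 and 19, 13 and 7 in shControl replicates 1, 2 and 3. Wnt2 had 5 counts in shThoc1 replicate 2, so the likeness of these 2 genes there rests on values near the floor.

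For Acta2 the nearest genes were Tagln, the smooth muscle protein transgelin, and Lgals1, a galectin, both at 0.158. Tagln had 209, 436 and 187 CPM in shThoc1 replicates 1, 2 and 3 and 245, 441 and 201 CPM in shControl replicates 1, 2 and 3. Like Acta2, it was high in shThoc1 replicate 2 and shControl replicate 2 and similar among the other 4 libraries. The nearest to Pdgfrb were Fam124a at 0.113 and Nexn, an actin-binding protein of muscle, at 0.137. The nearest to Pdgfra were Tmem151a at 0.080 and Gng11 at 0.109, to Pi16 Art3 at 0.091 and Gsta4 at 0.166, to Dcn Hcst at 0.161 and Cldn8 at 0.171, and to Gli1 Kazald1 at 0.089 and Sec16b at 0.276.

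Other markers of the same cell types and genes of the members' pathways were read from the same fit. No gene of these lists passed the adjusted threshold in edgeR over all libraries. Each list's count at an unadjusted p under 0.05 is to be read against the share of all genes. That share was 6.93% higher and 9.24% lower over all libraries, and 11.5% higher and 21.2% lower without shThoc1 replicate 2. Of 15 further alveolar fibroblast markers tested, 13 were above 0 and 2 below, with a median log2 fold change of 0.66, and at an unadjusted p under 0.05, 2 were higher and 0 lower in shThoc1. When shThoc1 replicate 2 was left out all 15 were above 0 with a median of 1.10, against a median of -0.06 over all genes. In that fit all 10 alveolar type 1, 10 type 2, 10 endothelial and 9 mesothelial markers were also above 0. Their medians were 1.11, 0.78, 1.35 and 1.26. All 15 neuroendocrine tumour markers and all 12 markers of dividing cells were below 0. They were below 0 over all 6 libraries too, with medians there of -3.14 and -2.19. In the fit over all 6 libraries, 10 type 1, 9 type 2, 10 endothelial and 8 mesothelial markers were above 0. The 2 alveolar fibroblast markers with the smallest p over all libraries were Slc7a10, an amino acid transporter, and Ces1d, a carboxylesterase that hydrolyses lipids. Slc7a10 had 6.18, 3.36 and 5.35 CPM in shThoc1 and 2.10, 0.876 and 1.24 CPM in shControl, without overlap (log2 fold change 1.81, SE 0.49, adjusted p = 0.304, and 1.96 without shThoc1 replicate 2, adjusted p = 0.0715). Ces1d had 1095, 476 and 1201 CPM in shThoc1 and 218, 325 and 573 CPM in shControl (1.31, SE 0.51, adjusted p = 0.304, and 1.56 without shThoc1 replicate 2, adjusted p = 0.081), and its lowest shThoc1 library, replicate 2, fell within the shControl range.

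Of 17 further adventitial markers tested, 10 were above 0 and 7 below, with a median of 0.23, and at an unadjusted p under 0.05, 2 were higher and 3 lower. Dpp4, a membrane peptidase also expressed by epithelium and lymphocytes, had 163, 97.6 and 136 CPM in shThoc1 replicates 1, 2 and 3 and 38.6, 55.7 and 35.6 CPM in shControl replicates 1, 2 and 3. Every shThoc1 library lay above every shControl library, with a log2 fold change of 1.61 (SE 0.28, adjusted p = 0.304, edgeR), and without shThoc1 replicate 2 Dpp4 was higher by a log2 fold change of 1.72 (adjusted p = 0.0488). Col15a1, a basement membrane collagen, ran the other way, with 4.10, 12.4 and 2.90 CPM in shThoc1 and 53.8, 30.4 and 45.3 CPM in shControl. Its log2 fold change was -2.74 (SE 0.62, adjusted p = 0.304), and without shThoc1 replicate 2 it was lower by a log2 fold change of -3.68 (adjusted p = 0.0488). With that library left out, the list had 9 genes above 0 and 8 below, with a median of 0.04. At an unadjusted p under 0.05, 6 were then higher and 4 lower, against 11.5% and 21.2% of all genes. Of these, 2 were called higher, Dpp4 and Pcolce2, and 1 lower, Col15a1, where 1.65% of all genes were called. Pcolce2, a collagen processing protein named here after its values were seen, had 165.9, 10.3 and 140.4 CPM in shThoc1 and 49.5, 43.4 and 40.8 CPM in shControl, and its log2 fold change was 1.24 over all libraries (adjusted p = 0.469) and 1.72 without shThoc1 replicate 2 (adjusted p = 0.0488).

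Of 13 pericyte markers tested, 7 were above 0 and 6 below, with a median of 0.08, and 0 had an unadjusted p under 0.05. Rgs5, a regulator of G protein signalling in pericytes, had 7.16, 122 and 7.80 CPM in shThoc1 and 227, 48.3 and 547 CPM in shControl, so shThoc1 replicates 1 and 3 were far below every other library (log2 fold change -2.59, SE 1.42, adjusted p = 0.382). With the third shThoc1 library, replicate 2, left out, the log2 fold change was -5.26 (adjusted p = 0.066). Cspg4, the proteoglycan NG2 of pericytes, had 12.2, 9.48 and 15.8 CPM in shThoc1 and 13.3, 35.3 and 16.9 CPM in shControl, overlapping between the groups (-0.80, SE 0.44, adjusted p = 0.380, and -0.71 without shThoc1 replicate 2). These 2 genes ran against most of the list once that library was left out: 8 genes were then above 0 and 5 below, with a median of 0.42. At an unadjusted p under 0.05, 4 were higher and 1 lower, against 11.5% and 21.2% of all genes. The 4 higher ones, named after their values were seen, were Cox4i2, Gucy1a1, Gucy1b1 and Notch3, with log2 fold changes of 1.35, 1.25, 0.94 and 0.97, and none passed the adjusted threshold. Gucy1a1, a subunit of the nitric oxide receptor, had 170.9, 11.3 and 143 CPM in shThoc1 replicates 1, 2 and 3 and 48.7, 81.3 and 59.3 CPM in shControl replicates 1, 2 and 3. Rgs5 therefore did not share its library order with Pdgfrb, which was within 1.07 times the shControl mean in the same shThoc1 libraries. Markers of neuroendocrine tumour cells were also low in the libraries with low Rgs5, at 34.3, 239 and 33.7 CPM in shThoc1 and 1157, 107 and 1085 CPM in shControl, and their part in its values was not tested.

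Of 15 smooth muscle genes tested, 12 were above 0 and 3 below, with a median of 0.60, and 1 was higher at an unadjusted p under 0.05. Synpo2, an actin-binding protein of muscle, had 24.7, 93.0 and 21.8 CPM in shThoc1 replicates 1, 2 and 3 and 11.9, 11.3 and 21.6 CPM in shControl replicates 1, 2 and 3 (log2 fold change 1.64, SE 0.65, adjusted p = 0.307). Myh11, the smooth muscle myosin heavy chain, had 119, 190.3 and 93.8 CPM in shThoc1 and 79.3, 64.8 and 95.7 CPM in shControl (0.75, SE 0.31, adjusted p = 0.311). Both were highest in shThoc1 replicate 2. With it left out the log2 fold change was 0.57 for Synpo2 (adjusted p = 0.305) and 0.35 for Myh11 (adjusted p = 0.328), and 8 of the 15 genes were above 0 and 7 below, with a median of 0.19. Cardiac muscle markers, which some lung veins also express, summed to 438, 326 and 276 CPM in shThoc1 and 103, 33.6 and 597 CPM in shControl.

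**Figure D5:**
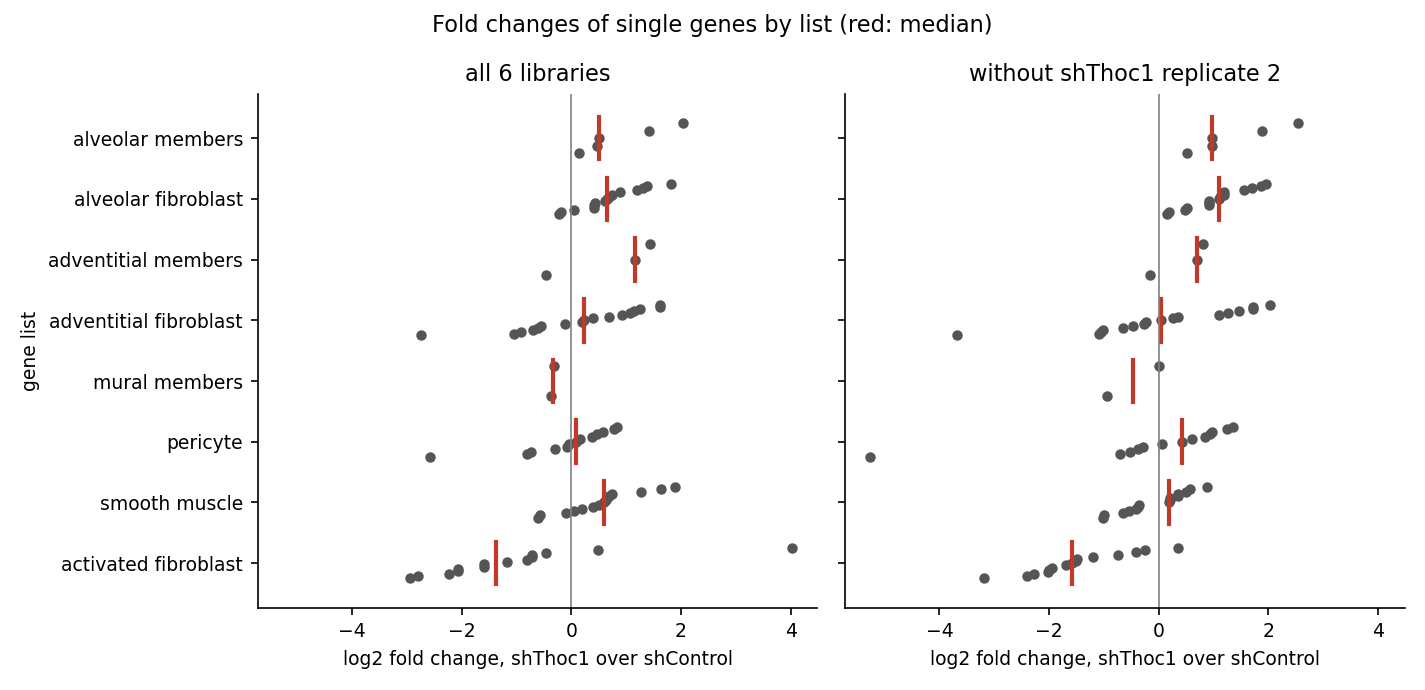
Log2 fold change, shThoc1 over shControl, of every tested gene of the member groups and the related lists, one point per gene with the median in red, over all 6 libraries and without shThoc1 replicate 2. The alveolar fibroblast list has a median of 0.66 over all libraries and 1.10 without that library, and the activated fibroblast list -1.38 and -1.59.

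Of 14 genes of activated, matrix-producing fibroblasts tested, 2 were above 0 and 12 below, with a median of -1.38, and at an unadjusted p under 0.05, 1 was higher and 5 lower in shThoc1. Timp1, an inhibitor of matrix metalloproteinases, had 5.14, 10.8 and 10.4 CPM in shThoc1 and 60.4, 109 and 32.4 CPM in shControl, without overlap (log2 fold change -2.94, SE 0.55, adjusted p = 0.304). Fn1, the matrix protein fibronectin, had 255, 202 and 212 CPM in shThoc1 and 753, 827 and 437 CPM in shControl, again without overlap (-1.59, SE 0.30, adjusted p = 0.304). In these 2 genes shThoc1 replicate 2 lay with the other shThoc1 libraries, and leaving it out gave -3.18 for Timp1 (adjusted p = 0.0609) and -1.59 for Fn1 (adjusted p = 0.0631). The list then had 1 gene above 0 and 14 below, with a median of -1.59. Fn1 and Timp1 are also expressed by epithelial, tumour and myeloid cells, which these libraries hold too.

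In the hedgehog pathway, in which Gli1 acts, 9 of 14 genes tested were above 0 and 5 below, with a median of 0.17, and 1 was lower at an unadjusted p under 0.05. That gene was Gli3, the repressor of the family, with 6.53, 7.61 and 9.66 CPM in shThoc1 replicates 1, 2 and 3 and 22.1, 32.9 and 16.1 CPM in shControl replicates 1, 2 and 3 (log2 fold change -1.58, SE 0.35, adjusted p = 0.304). Every shThoc1 library lay below every shControl library for Gli3, whereas Gli1 overlapped. The ligand gene Dhh had 4.93, 0.593 and 4.09 CPM in shThoc1 and 1.47, 1.12 and 1.54 CPM in shControl (1.22, SE 0.75, adjusted p = 0.418). With shThoc1 replicate 2 left out the log2 fold change was -1.62 for Gli3 (adjusted p = 0.0732) and 1.64 for Dhh (adjusted p = 0.0679), and 8 genes of the pathway were above 0 and 6 below, with a median of 0.32 and, at an unadjusted p under 0.05, 3 higher and 1 lower. Ptch1, the receptor and another target of the pathway, had 96.0, 32.2 and 109 CPM in shThoc1 and 66.9, 65.9 and 66.0 CPM in shControl, and Hhip, a ligand trap, had 28.8, 14.3 and 30.4 CPM in shThoc1 and 21.4, 20.4 and 18.8 CPM in shControl. For both, shThoc1 replicates 1 and 3 were above and replicate 2 below the shControl libraries, the arrangement of Tcf21, Npnt, Wnt2 and Inmt and not that of Gli1.

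Of the 4 ligand genes of the Pdgfra and Pdgfrb receptors, 2 were above 0 and 2 below. Pdgfd, a ligand of PDGFRB, had 16.7, 3.16 and 10.9 CPM in shThoc1 and 5.39, 5.50 and 4.32 CPM in shControl (log2 fold change 1.02, SE 0.60, adjusted p = 0.405). Pdgfc, a ligand of PDGFRA, had 3.06, 9.88 and 7.65 CPM in shThoc1 and 5.46, 28.7 and 7.25 CPM in shControl (-1.01, SE 0.78, adjusted p = 0.504). Neither separated the groups, and leaving out shThoc1 replicate 2 gave 1.38 for Pdgfd (adjusted p = 0.068) and -1.44 for Pdgfc (adjusted p = 0.312). Pdgfc was highest in shControl replicate 2, the library in which both receptors were highest.

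Among 11 other Wnt ligands and R-spondins, the family of Wnt2 and its enhancers, 8 were above 0 and 3 below, with a median of 0.51 and 0 at an unadjusted p under 0.05. Wnt11 had 10.6, 14.0 and 13.5 CPM in shThoc1 and 7.49, 5.97 and 11.4 CPM in shControl (log2 fold change 0.62, SE 0.34, adjusted p = 0.379). Rspo1, which is also a mesothelial marker, had 16.7, 2.86 and 14.6 CPM in shThoc1 and 1.54, 7.49 and 1.24 CPM in shControl (1.74, SE 0.95, adjusted p = 0.383). When shThoc1 replicate 2 was left out the values were 0.47 for Wnt11 (adjusted p = 0.402) and 2.13 for Rspo1 (adjusted p = 0.146), and 7 genes were above 0 and 4 below, with a median of 0.47 and 3 higher at an unadjusted p under 0.05. Among 7 other small leucine-rich proteoglycans, the family of Dcn, 2 were above 0 and 5 below, with a median of -0.40 and 0 at an unadjusted p under 0.05. The 2 with the smallest p were Ogn, with 427, 79.0 and 317 CPM in shThoc1 and 132, 166 and 99.4 CPM in shControl (1.05, SE 0.60, adjusted p = 0.397), and Prelp, with 227, 39.4 and 212 CPM in shThoc1 and 99.8, 101 and 63.4 CPM in shControl (0.86, SE 0.64, adjusted p = 0.490). Ogn and Prelp were lowest in shThoc1 replicate 2, the library in which Dcn was highest. Leaving that library out gave 1.42 for Ogn and 1.25 for Prelp (adjusted p = 0.0576 each), and the list still had 2 genes above 0 and 5 below, with a median of -0.57.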

How the data were processed

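RNA was sequenced from 6 mouse lung libraries, purified with an RNeasy kit and prepared with a NEBNext Ultra kit, per the labels' protocols. The genome build was GRCm39, per the submitters' processing notes, while aligner, counter and strand setting are not given in the sources used, so reads of antisense and overlapping genes cannot be separated. In 1 table, the authors deposited a raw count per gene and library, with log2 fold changes, their standard errors, a test score (the statistic), p-values and a mean normalized count (a signal over all libraries, not used here) in columns named as in DESeq2, per the file headers.

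Replicate numbers follow the order of the records and pair nothing. For 15287 genes that passed filterByExpr, edgeR 4.0.16 under R 4.3.3 was run on the counts (quasi-likelihood test, robust, TMM, Benjamini-Hochberg over all tested genes), and a gene with an adjusted p under 0.05 was called. The other 4352 genes were not tested. Standard errors (SE) given with edgeR were derived as the absolute log2 fold change over the square root of the test's F statistic. The common biological coefficient of variation was 0.480. CPM use TMM-scaled totals, and likeness and pair differences use log2(CPM + 0.5). No 2 libraries agreed within sampling noise (smallest chi-square per degree of freedom 20.4). Depth limits low genes such as Wnt2 most. The code was tested on simulated data.

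The members and lists were chosen with earlier results of these data known. Named are all members, Thoc1, the 2 genes of each related list with the smallest p, and the 2 genes most like each member with a mean log2 CPM of at least 1. Ptch1, Hhip, Pcolce2, Cox4i2, Gucy1a1, Gucy1b1 and Notch3, and the genes under other observations, were picked with their values in view. The alternatives, tried with edgeR, limma 3.58.1 and DESeq2 1.42.0, were other scalings, filters and pseudocounts, quality weights, summing shThoc1 replicates 2 and 3, whose titles share a number, and leaving out each library. Counts of non-overlapping members under other scalings and list counts without shThoc1 replicate 2 were added after the data were seen. Promoter letters are from RefSeq GRCm38.p6. Protein sequences were not used here.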

Additional observations from a re-analysis of the deposited data

How the results depend on the processing

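Of 140 values of the members' fold changes under alternatives, 125 kept direction and side of the threshold, 4 passed it anew and 11 reversed. Over all genes, edgeR called 0 (2473 at an unadjusted p under 0.05), DESeq2 929, voom with sample quality weights 6817, and edgeR without 1 library 0 to 258. Called members were 0, with 3 under quality weights and 0 to 1 without 1 library. The quality weights called these 3 members beside 6817 of all 15287 genes. They were Inmt (2.53, adjusted p = 0.00863, limma), Dcn (1.14, adjusted p = 0.0306) and Pi16 (1.06, adjusted p = 0.0455). Those weights were 0.139 for shThoc1 replicate 2, 0.359 for shControl replicate 2 and 4.42 for shThoc1 replicate 3. Without shThoc1 replicate 2, chosen after seeing the data, 6 members lay wholly above and 1 wholly below shControl, against 27.7% and 27.6% of all genes. Leaving out each library gave log2 fold changes of -0.029 to 0.96 for Tcf21, -0.015 to 0.98 for Npnt, -0.21 to 0.88 for Pdgfra (reversed 4 times, also at -0.14, -0.07 and -0.21), -1.09 to 0.93 for Gli1, -0.60 to 0.00012 for Pdgfrb, -0.95 to 0.15 for Acta2 and -1.44 to 0.13 for Pdgfc. Inmt stayed at 1.49 to 2.53, Wnt2 at 0.70 to 1.88, Pi16 at 0.81 to 1.66 and Dcn at 0.70 to 1.74. Quality weights reversed Gli1 (1.12) and Pdgfrb (0.29). Tcf21 minus Acta2 ran from -0.92 to 1.91 without 1 library (also -0.90, -0.03 and -0.18) and was -0.016 at a pseudocount of 0.1; Tcf21 minus Pi16 ran from -2.45 to 0.16, and Pdgfra minus Pdgfrb from 0.21 to 0.82. The causes were not tested. The list of activated fibroblast genes had 1 gene above 0 without shThoc1 replicate 2, against 2 with it. For the 19 other genes tested alike, 243 of 266 values kept direction and side, 22 passed the threshold anew and 1 reversed. No paired analysis was possible because the numbers in the titles do not pair libraries across the groups.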

Other observations

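Some matrix genes of the lists, chosen here after their values were seen, were highest in shControl replicate 2, the library in which Pdgfra, Pdgfrb, Gli1 and Acta2 were also highest. Omd, a small leucine-rich proteoglycan, had 6.46, 2.67 and 74.5 CPM in shThoc1 replicates 1, 2 and 3 and 1.26, 314 and 1.68 CPM in shControl replicates 1, 2 and 3. Lum, its collagen-binding relative lumican, had 5.49, 67.7 and 98.3 CPM in shThoc1 and 9.17, 330.3 and 13.4 CPM in shControl. Tnc, the matrix protein tenascin C, had 5.07, 31.8 and 81.2 CPM in shThoc1 and 40.8, 439 and 13.6 CPM in shControl, and Col1a1, the main fibrillar collagen chain, had 39.1, 43.1 and 227 CPM in shThoc1 and 353, 929 and 171 CPM in shControl. Within shThoc1 these 4 genes were highest in replicate 3. In shThoc1 replicate 2, Ucp1, the uncoupling protein of brown fat, stood at 361 CPM and the adipocyte hormone gene Adipoq at 147 CPM.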
